A study of Canis lupus familiaris with 6 samples.

Results

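Rab GTPases are small switch proteins that direct vesicles between the membranes of a cell. The 10 described here are RAB1A, RAB2A, RAB5A, RAB5C, RAB7A, RAB8A, RAB9A, RAB10, RAB11A and RAB22A. These genes were chosen by name, with earlier results of these data known. Each was measured with every array probe whose transcript accession is a dog RefSeq transcript of it. They have 17 probes among the 43584 usable ones on the array, and they are 10 of the 1436 genes that could be named. The cells were MDCK-II, an epithelial line from dog kidney tubule, carrying a tetracycline-inducible short hairpin RNA against scribble, a scaffold protein of cell polarity (scribKD cells). One arm received no tetracycline and the other 5 µg/ml from 6 h after plating, and total RNA was taken 30, 45 and 60 h after that addition, or at the matching times without it. Each of the 6 arrays holds RNA mixed from 3 wells, so each arm has 3 arrays, 1 per time, and no condition has a replicate array. Both arms carry the hairpin construct, and with no hairpin-free arm an effect of the drug cannot be told apart from an effect of the hairpin.

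A Rab protein binds its membrane when loaded with GTP and recruits tethers, motors and fusion factors; after GTP hydrolysis a GDP dissociation inhibitor lifts it off and returns it for another round. Polarized kidney cells use different Rabs for the early secretory pathway, for delivery to the apical and basolateral membranes, for recycling endosomes and for the route to lysosomes. MDCK cells are a standard system for this sorting, and several of these proteins were studied in them.

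Between 64.3% and 68.8% of the non-control spots of an array were well above background, and 0 were saturated. All 17 Rab probes were well above background on all 6 arrays. All 7 of the measured epithelial markers were too, among them E-cadherin (CDH1), occludin (OCLN) and cingulin (CGN). Their summed level lay between 7.02 and 7.05 on the log2 scale described below without tetracycline and between 6.75 and 6.88 with it. The single markers did not all follow the sum. Mean differences, with minus without tetracycline, were positive for CDH1 (0.19), OCLN (0.13) and PODXL (0.0084). They were negative for CLDN2 (-0.66), TJP1 (-0.26), CGN (-0.26) and KRT19 (-0.25). Whether this bears on the Rab values was not tested. Of the other cell types' markers, 4 of 5 fibroblast, 2 of 2 endothelial, 1 of 1 leukocyte and 2 of 4 muscle genes were well above background on all arrays, while DCN, DES and MYH7 were not on any. Their summed levels overlapped between the arms, at 1.71 to 1.91 without and 1.85 to 1.90 with tetracycline for the fibroblast genes, 4.53 to 4.60 and 4.46 to 4.62 for the endothelial ones, -4.16 to -3.91 and -4.14 to -3.80 for the leukocyte one and -1.90 to 0.53 and -1.86 to -0.83 for the muscle ones. In such bulk RNA, fewer cells of a kind and less RNA per cell cannot be told apart.

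The comparison of the arms asks which of these transcripts differ once tetracycline is present. Levels are log2 of the processed signal less the array's 75th percentile, so that 0 is the 75th percentile of that array's probes, and differences are with minus without tetracycline. A gene with several probes is described by its brightest one unless stated. On this scale 9 of the 10 genes were higher with tetracycline at all 3 times, by mean differences from 0.13 for RAB5C to 0.58 for RAB2A, and RAB1A stood at -0.04. By probe, 14 of 17 had a positive difference at every time and 0 a negative one at every time, where 27.7% and 21.9% of the 28178 probes tested did so. The first count was 13 under quantile or median scaling, where RAB11A turned at 30 h, and 11 with normexp background correction, where RAB5C and RAB9A turned; their 30 h differences lie within 0.02 of 0 on their brightest probes. The median difference of the 10 genes was 0.08 at 30 h, 0.17 at 45 h and 0.35 at 60 h, beside 0.02, 0.02 and 0.00 for all tested probes. The 45 h arrays of the arms lie on different slides, while those at 30 h share a slide, as do those at 60 h. At 45 h the arm therefore cannot be told apart from the slide.

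With limma, 0 of the 17 probes passed an adjusted p of 0.05 for the arms, as did 0% of all probes. The error is the spread of the difference over the 3 times, which limma pulls toward a prior shared by all probes. At an unadjusted p under 0.05 stood 8 of the 17, all higher with tetracycline, where 12.1% of all probes were higher at that level and 11.1% lower. These 8 belong to RAB2A, RAB5A (both probes), RAB7A (the dimmer of 2), RAB8A, RAB10 (both) and RAB22A. Without the 45 h pair of arrays the count was 1, RAB2A, and without the 60 h pair it was 4. Fits without a pair are less precise. Without the 45 h pair the mean difference of RAB10 was 0.49 (SE 0.17), against 0.46 (SE 0.11) with all pairs. That of RAB22A was 0.21 (SE 0.13), against 0.23 (SE 0.08). On 8 probes every array with tetracycline lay above every array without it, which held for 11.7% of all probes. The members share the same 6 arrays and are not replicates of the condition. Since they were chosen with earlier results of these data known, the shares over all probes serve as a scale and not as a test.

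**Figure D1:**
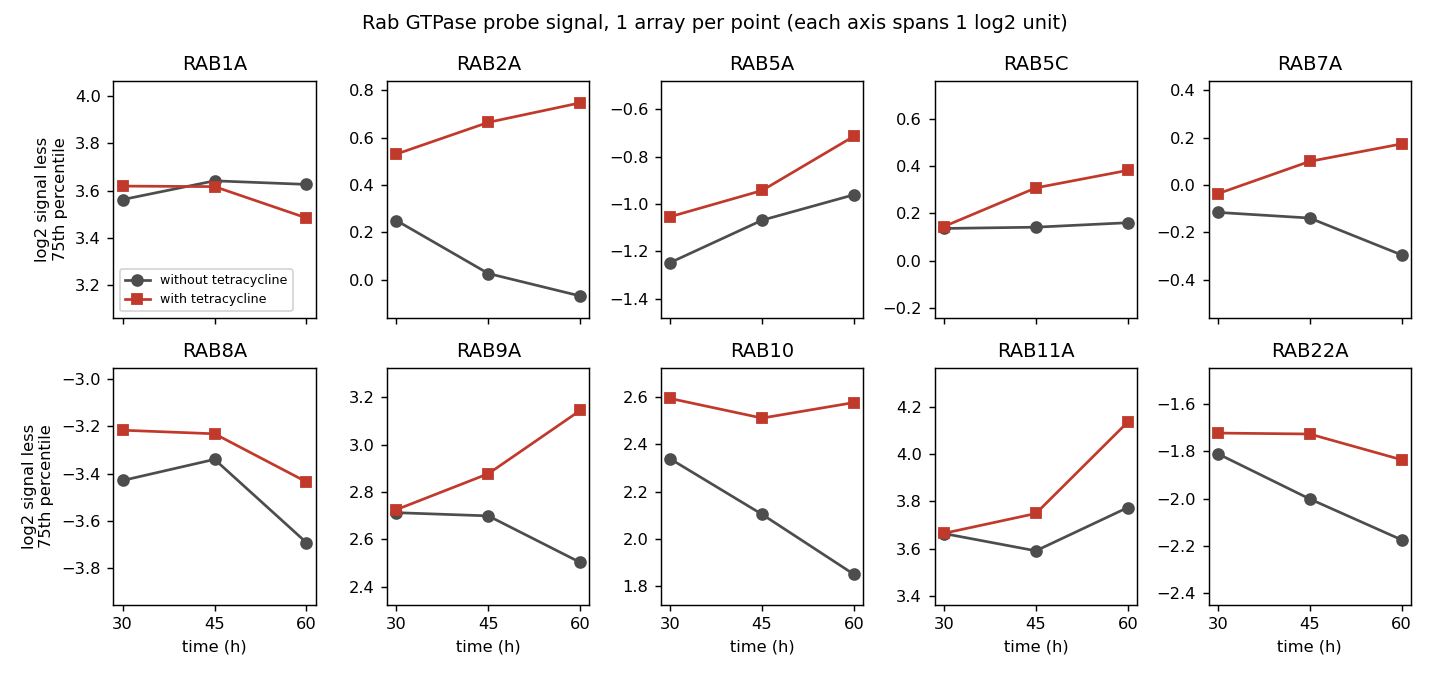
Level of each Rab gene (brightest probe; log2 processed signal less the array's 75th percentile, each vertical axis spanning 1 log2 unit) against time in h, with 1 array per point, grey circles without and red squares with tetracycline. The red points lie above the grey ones at each time in 9 panels, by 0.0011 to 0.82, and in the RAB1A panel at 30 h alone.

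RAB10 and RAB8A are closely related Rabs that carry newly made and recycling proteins to the plasma membrane, RAB10 mainly on the basolateral route and RAB8A also to the primary cilium. RAB10 (NM_001003277) stood at 2.34, 2.10 and 1.85 without tetracycline at 30, 45 and 60 h, and at 2.59, 2.51 and 2.58 with it. The arms did not overlap, and the lowest array with tetracycline was 0.17 above the highest without. RAB10 was thus 1.19-, 1.33- and 1.65-fold higher with tetracycline, with the 3 pairs of arrays giving a mean difference of 0.46 ± 0.11 (SE; limma adjusted p = 0.146). Its second probe gave 0.23, 0.31 and 0.55 for the same times, with the same order.

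RAB8A (NM_001003152) had the dimmest probe of the set, at -3.43, -3.34 and -3.69 without tetracycline and -3.22, -3.23 and -3.44 with it. The arms overlapped, since the 60 h array with tetracycline lay below the 30 and 45 h arrays without it. Its differences of 0.21, 0.11 and 0.26 had a mean of 0.19 ± 0.07 (limma adjusted p = 0.213). With normexp background correction the mean was 0.084 and the unadjusted p 0.165 (limma), against 0.0487 here. With a trended and robust prior the unadjusted p was 0.0992 (limma).

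RAB11A marks the recycling endosome below the apical surface and acts in the delivery of apical proteins and in lumen formation. RAB11A (NM_001003276) stood at 3.66, 3.59 and 3.77 without tetracycline and at 3.67, 3.75 and 4.14 with it. At 30 h the arms were level, with a difference of 0.0011, and at 60 h the array with tetracycline was the highest of the 6. The differences at 45 and 60 h were 0.16 and 0.36 (mean over the 3 times 0.17 ± 0.10, limma adjusted p = 0.340), and its other probe gave 0.08, 0.14 and 0.32.

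RAB1A and RAB2A work between the endoplasmic reticulum and the Golgi, RAB1A in forward transport and RAB2A at the intermediate compartment and the Golgi. RAB2A (NM_001003318) had the largest difference of the 10 genes. It stood at 0.25, 0.03 and -0.07 without tetracycline at 30, 45 and 60 h and at 0.53, 0.66 and 0.75 with it. The arms did not overlap and lay further apart at each later time. RAB2A was 1.22-, 1.56- and 1.76-fold higher with tetracycline, a mean difference of 0.58 ± 0.12 (limma adjusted p = 0.132), on its 1 probe.

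RAB1A (NM_001003153) stood at 3.56, 3.64 and 3.63 without tetracycline and at 3.62, 3.62 and 3.48 with it. The arms overlapped, and the order turned from slightly higher with tetracycline at 30 h (0.06) to lower at 60 h (-0.14), for a mean of -0.04 ± 0.08 (limma adjusted p = 0.808). All 3 of its probes showed this order, at 0.03 to 0.09 for 30 h, -0.03 to -0.02 for 45 h and -0.14 to -0.13 for 60 h. Without the 60 h pair its mean difference was 0.02.

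RAB5A and RAB5C are isoforms of the Rab that governs fusion of early endosomes, and RAB22A, of the same subgroup, acts in sorting from early to recycling endosomes. RAB5A (NM_001003317) stood at -1.25, -1.07 and -0.96 without tetracycline and at -1.05, -0.94 and -0.71 with it. Levels were higher at each later time in both arms, and the arms overlapped although the array with tetracycline was the higher one of each pair. The differences were 0.19, 0.13 and 0.25 (mean 0.19 ± 0.07, limma adjusted p = 0.210). On its other probe they were 0.29, 0.29 and 0.20 (0.26 ± 0.07, limma adjusted p = 0.152), and there the arms did not overlap.

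RAB5C (NM_001003261) was nearly flat without tetracycline, at 0.14, 0.14 and 0.16, and stood at 0.14, 0.31 and 0.38 with it. The 30 h arrays were level (0.01), and the later 2 arrays with tetracycline lay above all others. Its mean difference, 0.13 ± 0.08 (limma adjusted p = 0.365), was the smallest of the 9 positive ones. RAB22A (NM_001003208) stood at -1.81, -2.00 and -2.17 without tetracycline and at -1.72, -1.73 and -1.84 with it. The arms overlapped by the 60 h array with tetracycline, which lay just under the 30 h array without. RAB22A was 1.06-, 1.21- and 1.26-fold higher with tetracycline (mean difference 0.23 ± 0.08, limma adjusted p = 0.203).

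RAB7A directs late endosomes to lysosomes, and RAB9A returns mannose 6-phosphate receptors from late endosomes to the Golgi. RAB7A (NM_001003316) stood at -0.12, -0.14 and -0.30 without tetracycline and at -0.04, 0.10 and 0.17 with it. The arms did not overlap, though the 30 h arrays were 0.08 apart. The differences of 0.08, 0.24 and 0.47 (mean 0.26 ± 0.10, limma adjusted p = 0.221) were matched on its second probe by 0.13, 0.23 and 0.47.

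RAB9A (NM_001197031) stood at 2.71, 2.70 and 2.50 without tetracycline and at 2.73, 2.88 and 3.14 with it. The 30 h arrays were level (0.01), and the gap was 0.18 at 45 h and 0.64, or 1.56-fold, at 60 h, with no overlap of the arms. Its mean difference of 0.28 ± 0.14 (limma adjusted p = 0.314) carried the largest error of the set, since the 3 differences lie far apart. The second RAB9A probe gave 0.05, 0.20 and 0.58.

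**Figure D2:**
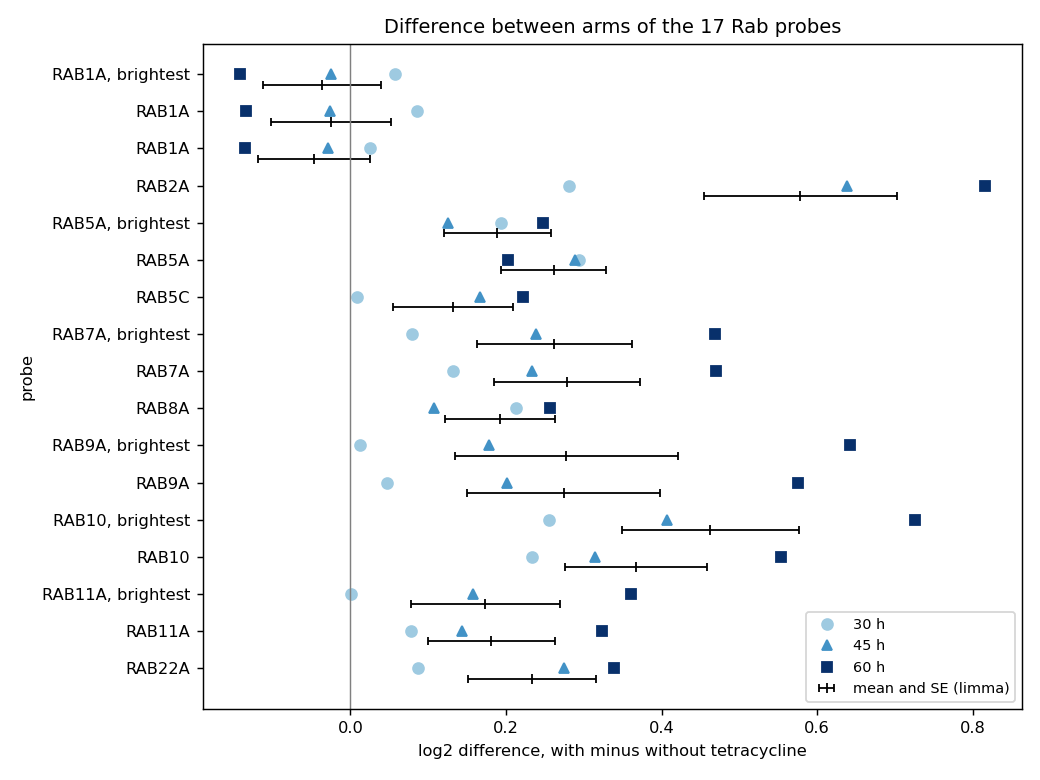
Log2 difference with minus without tetracycline for each of the 17 Rab probes at 30 h (circles), 45 h (triangles) and 60 h (squares); the black bar under each row is the mean over the 3 times with its SE from limma. The 3 RAB1A probes lie on both sides of 0, the other 14 to its right, and RAB2A reaches 0.82 at 60 h.

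Several probes of a gene read the same RNA on the same arrays, so their spread shows error between probes and not of the cells. It leaves out any error that a whole array shares. In the 6 genes with more than 1 probe, the differences of a gene's probes at a given time lay within 0.06 for RAB1A, 0.05 for RAB7A, 0.07 for RAB9A and 0.08 for RAB11A, and within 0.16 for RAB5A and 0.17 for RAB10. The scanner program's own error for these spots was 10.0% to 11.9% of the signal, which makes 0.20 to 0.24 for a difference between 2 arrays on the log2 scale. Of the 17 probes, 4 had a difference larger than their own such error at 30 h, 7 at 45 h and 13 at 60 h, where 25.5%, 38.4% and 48.9% of all tested probes did. Apart from RAB8A, at 0.22 to 0.24, the error was 0.20 to 0.21 on every Rab probe, so these counts come close to a single cutoff. Each Rab probe has 1 spot, so this error is not a spread between spots. Probe sequences were not used here, so any reading of a related Rab by these probes was not tested.

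**Figure D3:**
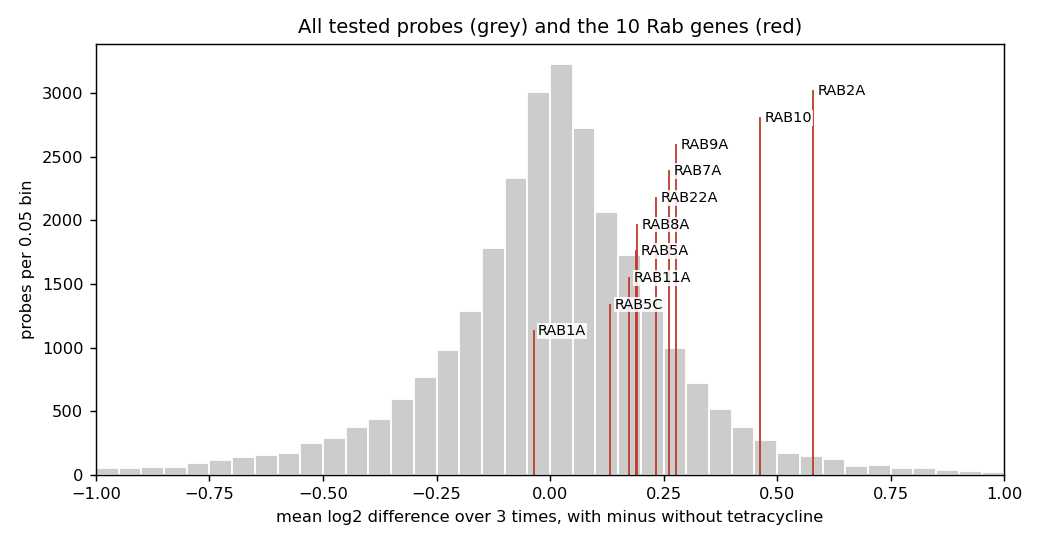
Mean log2 difference over the 3 times for all tested probes (grey bars, number of probes in each 0.05 bin) and for the brightest probe of each Rab gene (red lines, whose heights are set for legibility); the horizontal axis leaves out 383 of the 28178 probes that lie beyond 1 in either direction. RAB1A lies at -0.04, RAB2A and RAB10 at 0.58 and 0.46, and the other 7 between 0.13 and 0.28.

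The slope of the difference asks whether the gap between the arms moved over time. It was positive in 9 of 10 genes and 13 of 17 probes (48.5% of all probes), from 0.02 per 15 h for RAB8A to 0.31 for RAB9A, and -0.10 for RAB1A. For 7 genes (RAB2A, RAB5C, RAB7A, RAB9A, RAB10, RAB11A and RAB22A) the difference was above 0 at 30 h and larger at each later time; by probe this held for 11 of 17, and for 11.8% of all probes. In that order the 45 h difference is the one taken between slides. The slope was 0.31 ± 0.08 (SE) for RAB9A, 0.27 ± 0.07 for RAB2A and 0.24 ± 0.07 for RAB10, with limma adjusted p of 0.196, 0.207 and 0.232. With limma 0 of 17 probes, and 0% of all probes, passed an adjusted p of 0.05, and 4 of 17 had an unadjusted p under 0.05 with a positive slope, where 8.3% of all probes did. This fit leaves 1 residual degree of freedom, so the errors of the slopes rest largely on the prior shared by all probes. RAB9A passed with a trended and robust prior (slope 0.31) and, with RAB2A, under normexp background correction (0.33 and 0.27), settings under which 1831 and 1802 of all probes passed.

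Within an arm, each change from 30 to 60 h rests on 1 array per time and has no replicate check. Without tetracycline the change was negative for 6 of the 10 genes (47.4% of all probes), with RAB10 at -0.49, RAB22A at -0.36, RAB2A at -0.32, RAB8A at -0.26, RAB9A at -0.21 and RAB7A at -0.18. RAB5A stood at 0.29 in that arm, and RAB11A, RAB1A and RAB5C at 0.11, 0.06 and 0.02. With tetracycline it was positive for 6 of the 10 (51.3% of all probes): RAB11A stood at 0.47, RAB9A at 0.42, RAB5A at 0.34, RAB5C at 0.24, RAB2A at 0.22 and RAB7A at 0.21, while RAB10 stood at -0.02. RAB22A, RAB1A and RAB8A were negative there, at -0.11, -0.13 and -0.22. The median over the 10 genes was -0.19 without and 0.21 with tetracycline, beside 0.02 and 0.01 over all tested probes. The wider gap of RAB10 and RAB22A at 60 h thus went with lower levels without tetracycline at the later times, and that of RAB11A and RAB5C with higher levels in the arm that received it.

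**Figure D4:**
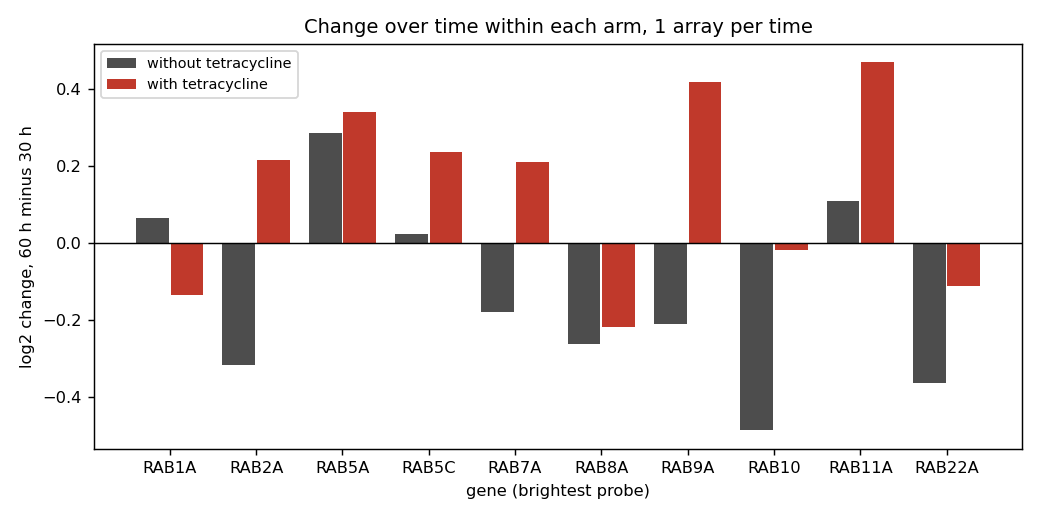
Log2 change from 30 to 60 h of each Rab gene (brightest probe) without (grey bars) and with tetracycline (red bars), from 1 array per time and arm. RAB2A, RAB7A and RAB9A are negative without and positive with tetracycline, RAB1A is the reverse, and RAB10 has the most negative bar at -0.49.

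With both arms in 1 contrast of 60 h against 30 h, 0 of the 17 probes passed an adjusted p of 0.05 with limma, where 8.17% of all probes did, and 3 had an unadjusted p under 0.05 (31.4% of all probes). RAB5A had the smallest adjusted p, with a change of 0.31 ± 0.08 (SE, 2 arrays per time; limma adjusted p = 0.0903) from 30 to 60 h. RAB11A stood at 0.29 ± 0.12 (limma adjusted p = 0.181), RAB10 at -0.25 ± 0.14 (0.290), RAB8A at -0.24 ± 0.09 (0.151) and RAB22A at -0.24 ± 0.10 (0.195), and the other 5 genes lay between -0.05 and 0.13. Both 30 h arrays lie on 1 slide and both 60 h arrays on the other, so slide and time move together here apart from the 45 h pair, which spans both slides. With the slide as a further term 0 of all 28178 probes passed, against 2302 without it. That fit is also less precise: the change was 0.41 with an SE of 0.24 for RAB5A, and -0.11 with an SE of 0.24 for RAB8A. Whether the slide or the lower precision took away the calls was not tested.

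At a single time 0 of the 17 probes differed by 2-fold or more between the arms, where 3.52% of all probes considered did at 30 h, 4.98% at 45 h and 7.68% at 60 h. At 1.5-fold the counts were 0 at 30 h, 1 at 45 h (RAB2A) and 3 at 60 h (RAB2A, RAB9A and RAB10), all higher with tetracycline, where 3.24%, 4.6% and 7.64% of all probes were higher by that much.

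Other genes of vesicle traffic were taken from 8 lists, most of whose genes have no named probe here, and each gene is again read on its brightest probe. With limma 0 genes of these lists passed an adjusted p of 0.05 for the arms or for the slope; for the arms, 6 of the 41 measured had an unadjusted p under 0.05 upward and 7 downward, where 12.1% and 11.1% of all probes did. Of the 40 that were well above background on all 6 arrays, 5 did upward and 7 downward. The 4 measured regulators and effectors of Rabs were all higher with tetracycline at all 3 times (median difference 0.26, beside 0.01 over all tested probes). RABAC1, a membrane protein that binds Rabs and their dissociation inhibitor, stood at 0.20, 0.42 and 0.43. The GDP dissociation inhibitor GDI2 (0.16, 0.23 and 0.46) takes Rabs off membranes, and PIK3C3 (0.14, 0.19 and 0.15) makes the lipid that marks early endosomes. Adjusted p for these 3 lay between 0.141 and 0.239 (limma).

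Among 4 other Rabs (median -0.11), 2 had a negative and 1 a positive difference throughout. RAB13, which acts in traffic of tight junction proteins, stood at -0.13, -0.33 and -0.53, and RAB27A, of regulated secretion, at -0.38, -0.30 and -0.07. RAB25, an epithelial relative of RAB11A, stood at 0.17, 0.13 and 0.43. Of 6 other small GTPases (median 0.12), 4 had a positive and 1 a negative difference throughout. RAN, of nuclear transport, stood at -0.38, -0.64 and -0.40 and NRAS at 0.25, 0.55 and 0.63. From 30 to 60 h 1 gene of this list rose, RHOB, a small GTPase of endosomes (0.63, limma adjusted p = 0.0391), and 1 fell, HRAS (-0.70, limma adjusted p = 0.0380), in a contrast where 8.17% of all probes passed; no gene of the other 7 lists did. Neither gene, and 0 of all probes, passed with the slide as a further term (limma adjusted p = 0.938 for both), with no arm term, with no detection filter or with any 1 array left out.

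The fusion factor STXBP2, a partner of apical SNAREs, stood at 0.22, 0.19 and 0.12, and the exocyst subunit EXOC6 at -0.04, -0.05 and -0.11. Of 6 coat genes (median 0.04), 1 was higher at all times, the retromer subunit VPS29 (0.04, 0.09 and 0.18), and 0 were lower. SNAP91, also of this list, was lower with tetracycline at 30 h (-0.18) and higher at 45 h (1.06) and 60 h (2.05). Its slope of 1.12 per 15 h did not pass an adjusted p of 0.05 with limma. Of 17 sorted cargo and raft genes (median -0.06), 3 had a positive and 5 a negative difference throughout; 1 of the 3, PROM1, was tested only because it was well above background with tetracycline. LMAN2, a lectin of the early secretory pathway, stood at -0.54, -0.78 and -0.76 (mean -0.69, limma adjusted p = 0.108; with normexp background correction -0.69 and 0.0382, where 143 of all probes passed), and the apical mucin MUC1 at -0.37, -0.75 and -0.53. The lipoprotein receptor VLDLR stood at -0.07, -0.52 and -1.18, a mean of -0.59 that was -0.30 without the 60 h pair. The apical membrane protein PROM1 is given no size, as it was not well above background at 30 and 45 h without tetracycline, and its fitted mean difference was 1.72 here but 0.31 with normexp background correction. The apical scaffold genes SLC9A3R1 (-0.21, -0.52 and -0.24) and EZR (-0.28, -0.20 and -0.06), the 2 measured polarity genes, were lower at all 3 times. SCRIB has no named probe here, so the depth of the knockdown was not analysed here.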

How the data were processed

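The authors' scanner output gives linear intensity per spot (1 colour, Cy3; build CanFam3.1), background-subtracted and detrended within each array by Agilent Feature Extraction 11.5.1.1, per the file headers. The deposited series matrix intensity equals the processed signal times 1 factor per array (2.30 to 2.62). Spots marked as outliers were left out, the others were averaged by probe, and 19 of 43603 probes lacked a usable spot on at least 1 array and were not used. Names came from RefSeq accessions without version in a table of genes (assembly UU_Cfam_GSD_1.0; no coordinates were taken), and 2325 probes were named. Probes well above background on all 3 arrays of an arm, 28178, were fitted with limma 3.58.1 in R 4.3.3 (two-sided, Benjamini-Hochberg over all of them): arm with time as a 3-level block, 60 h minus 30 h in the same fit, and arm by linear time. The prior SD was 0.107 with 2.38 degrees of freedom (2 residual) for arm and for time. For the slope it was 0.0796 with 2.75 degrees of freedom (1 residual). All 3 fits were tested on simulated data. P-values measure the spread over times, moderated by this prior, and not the spread between cultures. The number of arrays limits the precision. Members and lists were chosen with earlier results of these data known. Of each list the text names up to 4 genes: those past an adjusted p of 0.05 in any fit, then those with the largest mean difference among genes of the same sign at all times; 1 gene so named is not reported here. SNAP91 is named outside this rule, for its 60 h value. Alternatives were other scalings, normexp (offset 50), the series matrix, other filters, 1 probe a gene, a trended prior, other terms and left-out arrays.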

Additional observations from a re-analysis of the deposited data

Results flagged for a closer look

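For 4 genes the effect had opposite signs in groups that could be set side by side, each group being 1 pair of arrays. RAB1A was higher with tetracycline at 30 h and lower at 60 h (-0.14), and its change from 30 to 60 h with tetracycline less that without was -0.20 (limma adjusted p for the slope 0.494). For RAB2A, RAB7A and RAB9A the change from 30 to 60 h was negative without and positive with tetracycline, a gap of 0.54, 0.39 and 0.63 (limma adjusted p for the slope 0.207, 0.264 and 0.196).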

How the results depend on the processing

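For the arms and for time in culture, 0 member probes passed an adjusted p of 0.05 under every alternative run, 13 for the arms and 16 for time. For the slope the count went from 0 to 2 with normexp and to 1 with the trended and robust prior. The 8 member probes at an unadjusted p under 0.05 for the arms became 4 with no detection filter, 1 with the slide as a further term (which gives the same fit as leaving out the 45 h pair) and 1 to 8 when a pair of arrays was left out. At 1.5-fold in place of 2-fold the counts were 1 at 45 h and 3 at 60 h. Probes higher at all 3 times numbered 11 with normexp to 14. The sign of the mean arm difference held for the 9 positive genes under the 13 alternatives run. It turned for RAB1A, with a range of -0.083 to 0.016 when a pair was left out. The slope of RAB5A was -0.012 with normexp. For time in culture RAB1A was 0.027 under quantile scaling and RAB7A -0.063 under median scaling. With 1 array left out, time values ranged from -0.11 to 0.044 for RAB1A, -0.27 to 0.17 for RAB2A, -0.14 to 0.17 for RAB7A and -0.17 to 0.38 for RAB9A. They ranged from -0.45 to -0.055 for RAB10, -0.35 to -0.13 for RAB22A, 0.15 to 0.43 for RAB11A and 0.038 to 0.22 for RAB5C, and RAB8A was -0.065 with normexp. RHOB and HRAS lost their call over time under 9 of 16 alternatives each. Their changes kept their sign, at 0.43 to 0.78 for RHOB and -0.78 to -0.55 for HRAS. The cause of these shifts was not tested. The slope with a level for each 45 h array could not be fitted, as it leaves 0 residual degrees of freedom. The fit for the arms pairs the arrays by time; without that term 0 member probes passed an adjusted p of 0.05 and 6 had an unadjusted p under 0.05. The labels give no replicate numbers, so no other pairing was run.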
